A study of Homo sapiens with 8 samples.

Results

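The ETS family of transcription factors was examined for peaks of one of its own members, FLI1, in B-cell lymphoma. The 10 genes were chosen as ETS family genes with known roles in lymphocytes: FLI1, ETS1, ETS2, ELF1, ELF2, GABPA, SPI1, SPIB, ETV6 and ELK4. The choice was made with earlier results of these data known. All 10 genes were found in the annotation among 20162 protein coding genes. FLI1-bound DNA was isolated with a rabbit polyclonal anti-FLI1 antibody and sequenced (ChIP-Seq) from the established lines OCI-Ly1 and VAL, which derive from the germinal center B-cell (GCB) subtype of diffuse large B-cell lymphoma. OCI-Ly1 carries a BCL2 translocation and VAL carries translocations of BCL2 and MYC, the labels name no treatment, and each line had 2 FLI1 libraries and 2 input DNA samples. The input samples were not analysed here. The peak list from replicate 1 of OCI-Ly1 was not used, because 33 of its 37 intervals exceeded 1 Mb. Its only passing interval lies on chromosome 2, which carries none of the 10 genes. Values of OCI-Ly1 are therefore those of its replicate 2 throughout, and the VAL replicates are written VAL-R1 and VAL-R2.

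ETS factors share a winged helix DNA-binding domain that recognises a GGAA core, and the bases beside the core separate the classes of the family. Because so many members bind similar sites, the promoter of one ETS gene can be bound by another member or by its own product. In B cells the family sets lineage choice, B-cell receptor signaling and plasma cell differentiation, and ETS1 and FLI1 are neighbours on chromosome 11 that are gained together in part of these lymphomas.

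Each list gives, for every peak, a fold enrichment over the local background, a -log10 p and a -log10 q computed by the authors' peak caller. A peak was called passing at a -log10 q of at least 3, which is the FDR of 0.001 named in the study. A promoter peak had its centre within 3 kb of any annotated transcription start site (TSS) of the gene. Between 0.41% and 0.656% of the listed peaks of a library passed. The fold and the p-value of a peak give the reads at its summit, which numbered 6 or more in passing peaks of OCI-Ly1 and VAL-R2 and 8 or more in those of VAL-R1. The lists carry no read totals, so depth is known only through these small numbers. OCI-Ly1 rests on 1 library with no replicate error, and no test between lines or conditions could be made.

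FLI1 peaks were found at the promoters of 4 of the 10 genes in both lines: ELF2, GABPA, SPIB and ELK4. The promoters of FLI1 itself and ETV6 had a peak just over the threshold in VAL-R2. ETS1, ETS2, ELF1 and SPI1 had no passing promoter peak in any of the 3 libraries. The reference sequences under the recurrent sites are shown first, since the promoter peaks of the 4 genes each span a short word. Each is 28 bases of GRCh37 read 5′ to 3′ on the strand on which the word GGAAGT reads forward, and the capitals mark that word. They lie at chr19:50923017-50923044 (minus strand) for SPIB, chr1:205600647-205600674 (minus) for ELK4, chr4:140005664-140005691 (plus) for the main site of ELF2, chr4:140004109-140004136 (minus) for its second site and chr21:27107205-27107232 (minus) for GABPA.
SPIB: ctgctgggacaGGAAGTggggggtgggg
ELK4: gcggcacaacaGGAAGTgggggcggggg
ELF2 main site: gcgcccaaacaGGAAGTcccggacgctt
ELF2 second site: agtgtaaacacGGAAGTggccgcagggg
GABPA: gagccagggccGGAAGTagagcggaggt
SPIB, ELK4 and the main ELF2 site had CA before the word, the second ELF2 site had AC and GABPA had CC, the bases of the classical ETS consensus. The word was noticed in the sequences of these peaks and is a description of them. It lay 77.5 bp from the GABPA summit of OCI-Ly1 and 112.5 bp from the main ELF2 summit of VAL-R2. Within 100 bp of the summit, 41.6%, 49.6% and 38.3% of all passing promoter peaks held it in OCI-Ly1, VAL-R1 and VAL-R2.

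The number of genes with a passing promoter peak was set beside the share of all protein coding genes that passed by the same rule. In OCI-Ly1, 4 of 10 passed (40%), against 19.0% of protein coding genes. In VAL-R1, 2 of 10 passed (20%), against 3.14%, and in VAL-R2, 6 of 10 passed (60%), against 20.8%. Passing in both lines was seen for 4 of 10 (40%), against 12.6%, and passing in the 3 libraries for 2 of 10 (ELF2 and ELK4), against 2.73%. The median of the best promoter -log10 q of the 10 genes was 2.21 in OCI-Ly1, 1.09 in VAL-R1 and 3.29 in VAL-R2, and over all protein coding genes it was 1.22, 0.183 and 1.63. Each count lay above the background share, but the genes were few and were chosen with earlier results of these data known. The counts are therefore a description and no test of an excess. The share of genes passing also rises with the number of TSS. Among genes with 3 to 5 TSS, 10.5% passed in both lines, and among genes with 6 to 11 TSS 15%. GABPA has 3 TSS, SPIB and ELK4 have 5 and ELF2 has 11.

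**Figure D1:**
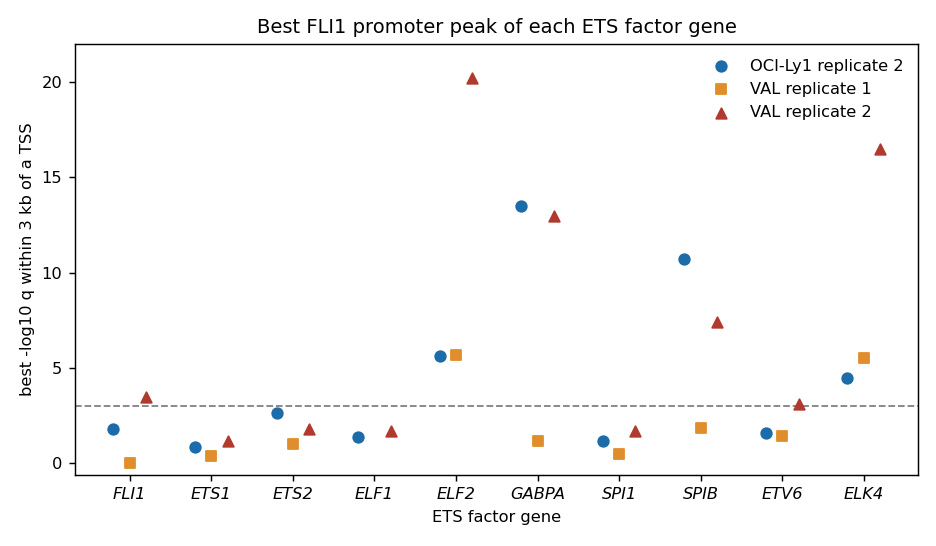
Best promoter peak of each ETS factor gene, as the -log10 q of the authors' peak caller (linear axis), in OCI-Ly1 replicate 2 (circles), VAL-R1 (squares) and VAL-R2 (triangles), with the threshold of 3 as a dashed line. ELF2 and ELK4 lie above the line in all 3 libraries, GABPA and SPIB in OCI-Ly1 and VAL-R2, and ELF1 has no listed promoter peak in VAL-R1.

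**Figure D2:**
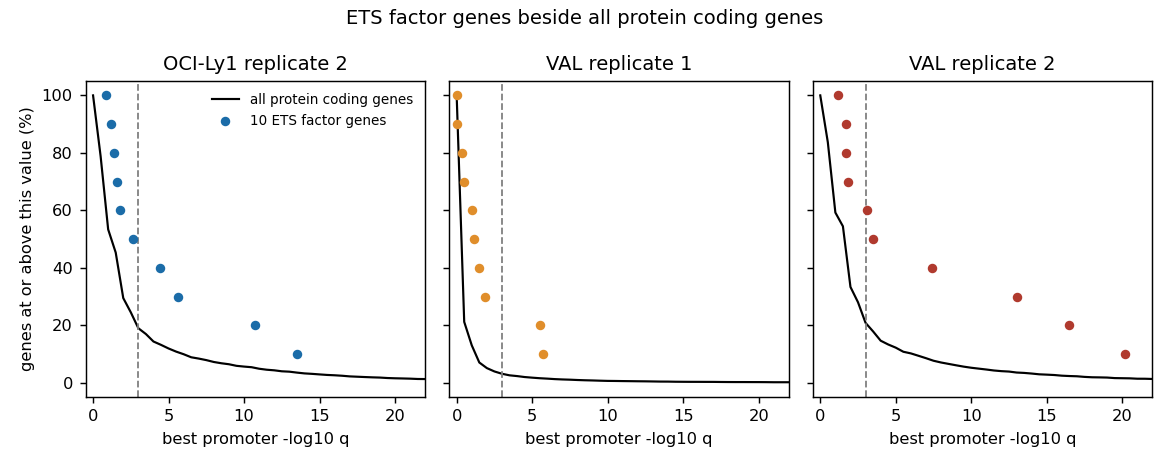
Percent of genes (y axis) whose best promoter -log10 q is at or above the value on the x axis, for all 20162 protein coding genes (black line, joined at steps of the histogram) and the 10 ETS factor genes (points), in 1 panel per library, with genes without a listed peak at 0 and the threshold of 3 dashed. At the threshold 4, 2 and 6 of the 10 genes remain.

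Of the ELF class, ELF2 is a broadly expressed factor whose isoforms activate or repress lymphoid genes. It had the highest single value among the 10 genes, in VAL-R2. The -log10 q was 5.62 in OCI-Ly1 (9 reads, fold enrichment 6.61), 5.7 in VAL-R1 (11 reads, fold 6.93) and 20.2 in VAL-R2 (17 reads, fold 13.7). These values exceeded those of 89.3%, 98.5% and 98.4% of protein coding genes. The summits of OCI-Ly1 and VAL-R1 lay 6 bp apart, and that of VAL-R2 lay 92 and 86 bp from them. The peak was not at the start of the canonical transcript. It lay in intron 4 of that transcript, with summits between 92715 and 92807 bp downstream of its TSS, where shorter protein coding transcripts start (chr4:140005234-140005994 in VAL-R2). The summit of VAL-R1 lay at -1 bp from the TSS of one of these. A second promoter peak stood next to it in OCI-Ly1 (-log10 q 4.48, 7 reads) and VAL-R2 (3.87, 6 reads), with summits 21 bp apart, and no listed peak of VAL-R1 overlapped it. ELF2 was the only one of the 10 genes with 2 passing promoter peaks in a library.

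ELF1, the close relative of ELF2 with roles in T-cell and B-cell gene expression, had no such peak. Its best promoter -log10 q was 1.36 in OCI-Ly1 (4 reads) and 1.71 in VAL-R2 (4 reads), and VAL-R1 listed none. In the 2 libraries that listed a peak, 51.8% and 52.3% of protein coding genes lay below ELF1, not counting genes with an equal value.

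ELK4 is a ternary complex factor, which binds next to serum response factor at growth-responsive genes. Its promoter peak had a -log10 q of 4.46 in OCI-Ly1 (8 reads, fold 5.95), 5.55 in VAL-R1 (19 reads, fold 5.18) and 16.5 in VAL-R2 (18 reads, fold 11.7). ELK4 passed in the 3 libraries, and its value exceeded that of 86.4%, 98.4% and 97.6% of protein coding genes. The summits lay in intron 1, between 481 and 537 bp downstream of the canonical TSS, 7 bp apart in OCI-Ly1 and VAL-R2 and 56 and 49 bp from these in VAL-R1. The reads were similar in VAL-R1 and VAL-R2, while the inferred background was 2.86 reads in VAL-R1 and 0.621 reads in VAL-R2. Passing promoter peaks had a median of 18 reads in VAL-R1 and 8 in VAL-R2.

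GABPA is the DNA-binding subunit of GA-binding protein, which pairs with a beta subunit and drives mitochondrial and cell growth genes. It reached a -log10 q of 13.5 in OCI-Ly1 (14 reads, fold 10.6) and 13 in VAL-R2 (15 reads, fold 10.2), with summits 30 bp apart. In VAL-R1 the listed peak had its summit 4 bp from that of OCI-Ly1 and 13 reads, but a background of 3.35 reads, a fold of 3.22 and a -log10 q of 1.18. The 13 reads of VAL-R1, where GABPA failed, lay below that library's median of 18 reads under passing promoter peaks. The 14 and 15 reads of OCI-Ly1 and VAL-R2 lay above the medians of 9 and 8 there. The median background under passing promoter peaks was 0.442 reads in OCI-Ly1, 2.34 in VAL-R1 and 0.37 in VAL-R2, and the part of this background in the calls was not tested. The summits lay between -17 and 17 bp from the canonical TSS of GABPA. The gene ATP5PF, which encodes a subunit of mitochondrial ATP synthase, starts on the other strand, and 1 of its TSS lies 51 bp from the summit of VAL-R2. The lists cannot assign the peak to either gene.

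SPIB and SPI1 encode the related factors Spi-B and PU.1, which act with IRF4 or IRF8 in B cells. At SPIB the -log10 q was 10.7 in OCI-Ly1 (12 reads, fold 9.32), 1.87 in VAL-R1 (11 reads, fold 4.11, background 1.92 reads) and 7.39 in VAL-R2 (9 reads, fold 7.54). Of the genes that passed in both lines, SPIB had the summits closest together. The 3 summits fell within 7 bp of each other in intron 1, between 832 and 839 bp downstream of the canonical TSS, and the summit below the threshold lay 2 bp from that of the other VAL library. Listed peaks of any strength were dense around SPIB, at 1.8, 1.88 and 1.99 times the genome's number per Mb in a window of 1 Mb, the highest of the 10 genes in each library. A TSS of a retained-intron transcript of POLD1, the catalytic subunit of DNA polymerase delta, lay within 3 kb of the peak as well.

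SPI1 showed weak signal only. Its best promoter -log10 q was 1.19 (4 reads), 0.473 (8 reads) and 1.69 (5 reads) in OCI-Ly1, VAL-R1 and VAL-R2. The pair of related genes thus differed in these lists, with SPIB passing in both lines and SPI1 in no library. SPI1 held the word CAGGAAGT too, at -91 bp from its canonical TSS and 31.5 bp from the summit of VAL-R1 (chr11:47400175-47400202, plus strand, GGAAGT in capitals).
SPI1: cgctacatacaGGAAGTctctggccggc

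**Figure D3:**
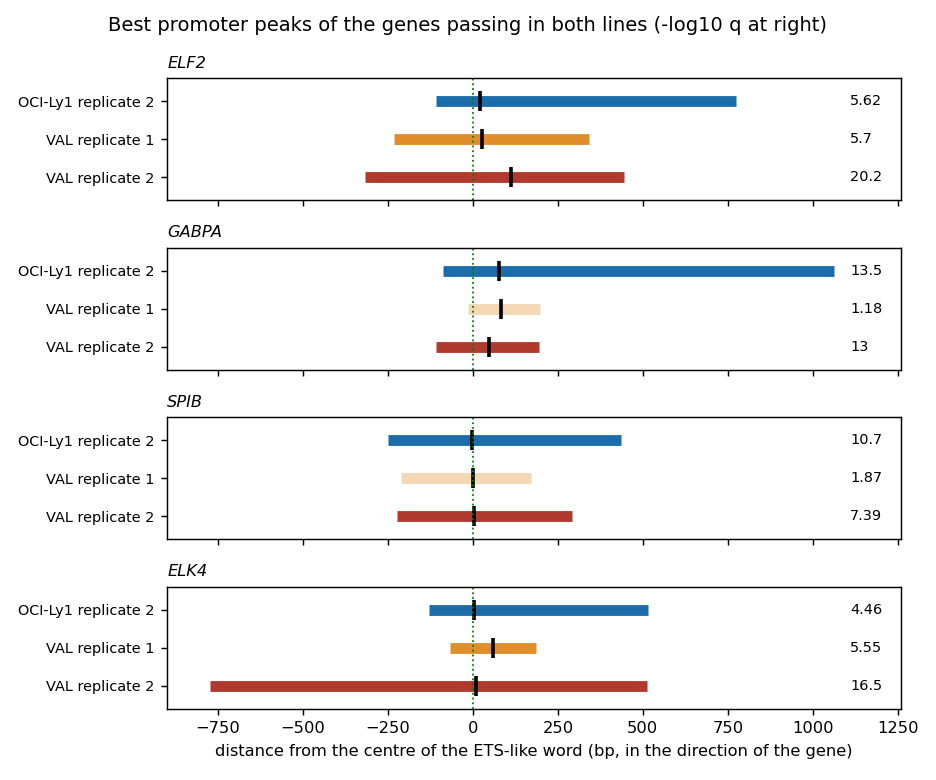
Extent of the best promoter peak (bars) and its summit (black ticks) in each library for the genes that passed in both lines, as distance in bp from the centre of the ETS-like word in the direction of the gene, with the -log10 q at the right and pale bars where the peak did not pass. The summits of SPIB lie within 3.5 bp of the word centre in the 3 libraries, those of ELK4 between 2.5 and 58.5 bp, those of ELF2 between 20.5 and 112.5 bp and those of GABPA between 47.5 and 81.5 bp.

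FLI1 is an ETS factor of blood and endothelial cells, and its own gene was examined for a site of its product. The best promoter peak had a -log10 q of 1.8 in OCI-Ly1 (5 reads), 0.0404 in VAL-R1 (5 reads) and 3.48 in VAL-R2 (6 reads, fold 5.26). These values stemmed from different positions, with summits at -5567 bp from the canonical TSS in OCI-Ly1 and at -6023 bp in VAL-R1. FLI1 passed in 1 of 3 libraries, with the lowest number of reads that passed in that library. The passing summit of VAL-R2 lay in intron 1, 235 bp downstream of the canonical TSS. Listed peaks of OCI-Ly1 (-log10 q 1.6) and VAL-R1 (-log10 q 0) overlapped it, with summits 333 and 435 bp away. The antisense long non-coding RNA SENCR also has a TSS within 3 kb of its centre. A stronger peak of the same library lay deeper in intron 1, 37186 bp downstream of the canonical TSS (-log10 q 4.51, 7 reads), and neither of the other libraries listed a peak that overlapped it.

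ETS1, which restrains plasma cell differentiation, and ETS2 had no passing promoter peak. At ETS1 the best -log10 q was 0.873 (3 reads), 0.382 (6 reads) and 1.17 (4 reads) in OCI-Ly1, VAL-R1 and VAL-R2, and 25.2%, 65.3% and 41.1% of protein coding genes lay below it. At ETS2 it was 2.62 (5 reads), 1.01 (6 reads) and 1.82 (5 reads). The summits behind these values differed in position, at 803, 64815 and 64945 bp from the canonical TSS for ETS1 and at -2257, 3711 and 428 bp for ETS2. The value of 2.62 was the nearest to the threshold from below among the 10 genes, and the value of 3.09 at ETV6 was the nearest from above. ETS1 had a passing peak elsewhere, in intron 3 in OCI-Ly1 (chr11:128382443-128382950, -log10 q 4.99, 9 reads). VAL-R2 listed a peak with a summit 24 bp away at a -log10 q of 0.952 (3 reads), and VAL-R1 listed none.

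ETV6 encodes a repressor needed for blood stem cells and is often rearranged in leukemia. Its best promoter -log10 q was 1.61 in OCI-Ly1 (4 reads), 1.46 in VAL-R1 (11 reads) and 3.09 in VAL-R2 (7 reads, fold 5.07). The values stemmed from different positions. The peak of VAL-R2 lay at -50 bp from the canonical TSS, that of VAL-R1 at -599 bp and that of OCI-Ly1 at 102625 bp, near an internal TSS. VAL-R2 held another passing peak in intron 5 (-log10 q 3.26, 6 reads), where OCI-Ly1 listed one 17 bp away at a -log10 q of 0.344.

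The reference sequences around 2 of the summits that passed in 1 library only are shown as well. Each is 61 bases of the plus strand of GRCh37 with GGAA or its complement TTCC in capitals. They are the ETS1 intron (chr11:128382758-128382818) and the ETV6 promoter (chr12:11802528-11802588).
ETS1 intron 3: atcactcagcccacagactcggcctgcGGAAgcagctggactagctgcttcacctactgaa
ETV6 promoter: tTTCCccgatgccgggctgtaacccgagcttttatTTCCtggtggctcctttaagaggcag
The ETS1 window held 1 GGAA core next to the summit and the ETV6 window held 2. Neither held GGAAGT.

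Inside the 10 genes, from the start to the end of each, passing peaks were found in 5 genes in OCI-Ly1 (ETS1, ELF2, GABPA, SPIB and ELK4), against 15.9% of protein coding genes. In VAL-R1, ELF2 and ELK4 held one (2 of 10, against 2.60%), and in VAL-R2 it was 6 of 10 (FLI1, ELF2, GABPA, SPIB, ETV6 and ELK4, against 18.8%). Apart from the peaks in ETS1, FLI1 and ETV6 named above, all of these were the promoter peaks already described. Over all protein coding genes the share with a peak inside was higher for longer genes, from 8.51% under 10 kb to 20.3% over 150 kb in OCI-Ly1 and from 9.84% to 25.8% in VAL-R2. ELF1 (130 kb), ETS2 (19.8 kb) and SPI1 (23.7 kb) held no passing peak in any of the 3 libraries, SPIB (12.4 kb) and GABPA (37.9 kb) held 1 in each line, and ETV6, with 246 kb the longest, held 2 in VAL-R2 alone.

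The sequence near the summits was searched on both strands within 50 bp. CCGGAAA and CCGGAAG were the words taken here as the ETS consensus. Both have CC before the core, so CAGGAAGT does not match them. This consensus was present at 0 of 6 passing peaks of these genes in OCI-Ly1 (Wilson 95% interval 0 to 39%). It was present at 0 of 2 in VAL-R1 (0 to 65.8%) and 1 of 9 in VAL-R2 (11.1%, 1.99 to 43.5%). The intervals cover counting error only. All passing promoter peaks of the same libraries held it in 44.7%, 53.5% and 37.7% of cases. All passing peaks, wherever they lay, held it in 35.1%, 36.1% and 28.4%. The interval of OCI-Ly1 lay below the share of promoter peaks and included that of all passing peaks. The other intervals included both shares of their libraries. These comparisons are a description and no test of a shortage, because the genes were chosen with earlier results of these data known. In OCI-Ly1 and in VAL-R2 the peaks also include 2 neighbouring promoter peaks of ELF2 and at least 1 peak outside promoters. They are therefore neither independent draws nor promoter peaks only. Of the promoter peaks alone, 0 of 5 held the consensus in OCI-Ly1, 0 of 2 in VAL-R1 and 1 of 7 in VAL-R2 (14.3%). Within 100 bp the word was present at 2 of 6 (33.3%), 0 of 2 and 2 of 9 (22.2%), beside 52.1%, 59.4% and 45.1% of passing promoter peaks, so the counts depended on the window. The 1 match within 50 bp was GABPA, with the word 46 bp from the summit of VAL-R2. Within 100 bp the matches in OCI-Ly1 were GABPA (76 bp) and SPIB (97 bp). In VAL-R2 they were GABPA and the FLI1 promoter peak, with the word 56 bp from its summit.

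The bare GGAA core was common, at 6 of 6, 1 of 2 and 6 of 9 peaks, beside 86.4%, 89% and 83.6% of passing promoter peaks. GGAAGT was present at 4 of 6, 1 of 2 and 4 of 9, beside 32.3%, 42.8% and 29.5%. CAGGAAGT, which contains GGAAGT, was present at 3 of 6 (ELF2, SPIB and ELK4), 1 of 2 (ELF2) and 2 of 9 (SPIB and ELK4), beside 4.03%, 5.31% and 4.49%. Both of these words were added after the summit sequences had been seen, so their counts are a description only. The centre of CAGGAAGT was 4.5, 0.5 and 2.5 bp from the SPIB summit in OCI-Ly1, VAL-R1 and VAL-R2. It was 3.5, 59.5 and 10.5 bp from the ELK4 summit in the same order. At ELF2 it was 19.5 and 25.5 bp from the summits of OCI-Ly1 and VAL-R1, and it was not within 100 bp of the summit of VAL-R2, the library with the highest -log10 q there.

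Of the words for partner factors, TGTGGT (RUNX) stood at 1 of 6, 0 of 2 and 1 of 9 passing peaks. Of passing promoter peaks 4.11%, 4.35% and 4.4% held it. Both matches were at SPIB, whose peak in VAL-R1, which did not pass, held the word too. The SPIB summits lay within 7 bp of each other, so these matches come from 1 place and are a description only. GAGGAA, the AP-1 word TGACTCA and the composite word of ETS and IRF factors (GGAA and GAAA parted by any 2 bases) were found at 0 passing peaks of the 10 genes. Over all passing promoter peaks GAGGAA stood at 11.5% to 12%, the AP-1 word at 0.596% to 0.702% and the composite word at 1.04% to 2.42%, so that a count of 0 among so few peaks was near the background. The GC box GGGCGG was found at 2 of 6, 2 of 2 and 4 of 9, beside 35.6%, 35.1% and 33.2%. From 250 bases before to 50 after the canonical TSS, the consensus was present at GABPA (at -66 bp) and ELK4 (at -22 bp) and at none of the other 8 genes, against 18.2% of the protein coding genes with a canonical transcript. Of genes with the consensus in this window 37.7% passed in both lines, and of genes without it 7.12%. ELF2 and SPIB, which passed in both lines, had neither the consensus nor a GGAA core in that window, and their summits lay outside it. The ELK4 summits lay outside it too, 481 to 537 bp downstream of the canonical TSS, with no consensus within 100 bp.

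**Figure D4:**
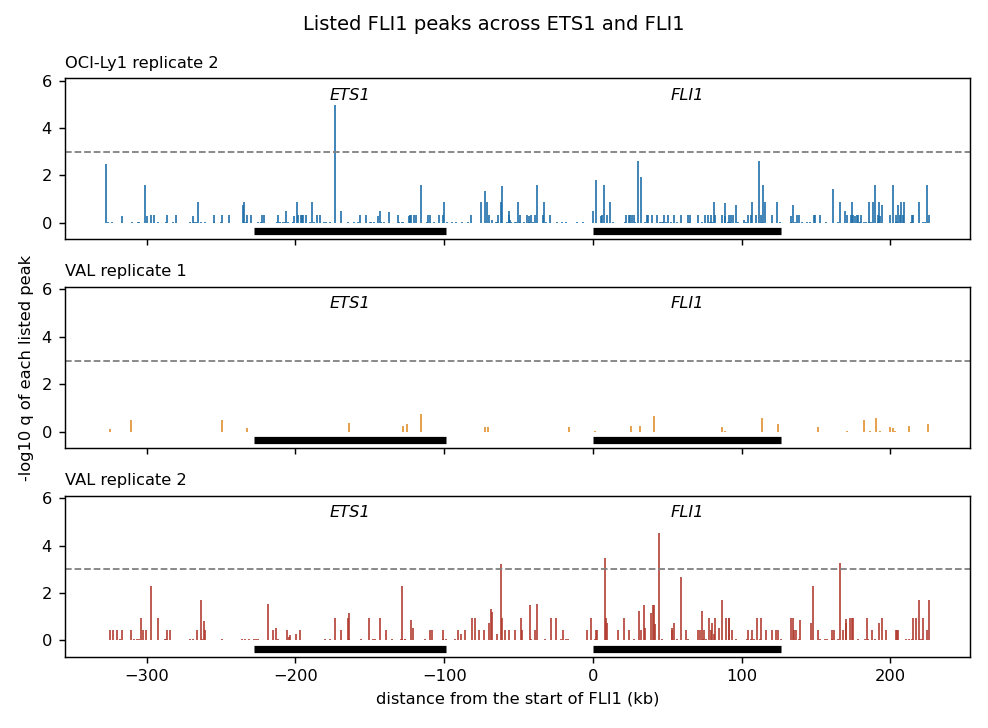
Listed FLI1 peaks from 100 kb before ETS1 to 100 kb after FLI1, as vertical lines at their distance from the start of FLI1 (kb) with the -log10 q as height, in 1 panel per library, with the genes as black bars and the threshold of 3 dashed. OCI-Ly1 has 1 line over the threshold, in ETS1, VAL-R1 has 0 and VAL-R2 has 4, of which 2 are in FLI1.

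ETS1 and FLI1 lie 99 kb apart, and the 555 kb from 100 kb before ETS1 to 100 kb after FLI1 were examined as 1 region. It held 1 passing peak in OCI-Ly1, 0 in VAL-R1 and 4 in VAL-R2, or 1.8, 0 and 7.21 per Mb beside 1.87, 0.34 and 2.26 over the genome. Of these 4 peaks 2 lay in FLI1, 1 lay between the genes (-log10 q 3.22, 6 reads) and 1 beyond FLI1 (-log10 q 3.27, 6 reads). No position passed in more than 1 library. Listed peaks numbered 469, 79.3 and 368 per Mb in OCI-Ly1, VAL-R1 and VAL-R2, and 387, 83 and 345 over the genome. ETS2 lies next to another ETS gene, ERG, on chromosome 21. That region of 645 kb held 0 passing peaks in each library, where the genome's density is low enough (1.87, 0.34 and 2.26 per Mb) for 0 to be near the background, and its highest -log10 q was 2.62, 1.18 and 2.7.

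The other ETS genes and partners of ETS factors were set beside the 10 genes. Of the 18 other ETS genes, 1 passed in OCI-Ly1 (ERF, -log10 q 4.92), 0 in VAL-R1 and 3 in VAL-R2 (ETV3, ETV3L and ETV7, between 3.29 and 3.87), and 0 passed in both lines. Their shares of 5.56%, 0% and 16.7% were at or below the 19.0%, 3.14% and 20.8% of all protein coding genes. These genes were named after their values had been seen. Of the 13 partners, 6 passed in OCI-Ly1, 1 in VAL-R1 (CREBBP, at a -log10 q of 3) and 7 in VAL-R2 (46.2%, 7.69% and 53.8%, against the same background shares), and 6 passed in both lines (46.2%, against 12.6%). EP300, a histone acetyltransferase recruited by ETS factors, reached 17 in OCI-Ly1, 1.46 in VAL-R1 and 17.6 in VAL-R2. The beta subunits of GA-binding protein passed along with GABPA, GABPB1 with 17, 1.05 and 7.9 and GABPB2 with 4.63, 0.0404 and 4.71. JUN, an AP-1 subunit, reached 6.4 and 9.19 in OCI-Ly1 and VAL-R2 and had no listed promoter peak in VAL-R1. The passing promoter peaks of EP300 and JUN were centred outside these genes, and other genes near them were not examined. RUNX1 reached 3.22, 0.495 and 5.32. Passing promoter peaks in both lines were thus seen at the 3 listed genes of GA-binding protein, GABPA, GABPB1 and GABPB2, and as for GABPA none of them passed in VAL-R1.

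**Figure D5:**
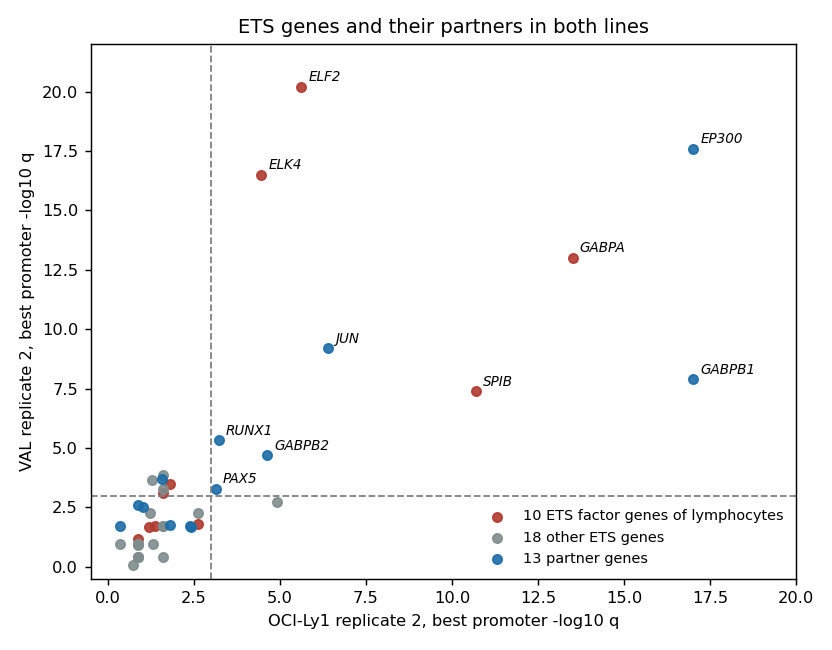
Best promoter -log10 q in OCI-Ly1 (x axis) and VAL-R2 (y axis) of the 10 ETS factor genes, 18 other ETS genes and 13 partner genes, with the threshold of 3 dashed on both axes. ELF2, ELK4, GABPA and SPIB and 6 partner genes lie above it on both axes, and no other ETS gene does.

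The protein coding genes with the most similar best promoter -log10 q over the 3 libraries were named by Euclidean distance. For ELF2 they were BRF2 (distance 2.15), CACNA1A (2.25) and SCYL3 (2.27), and for ELK4 LLPH (0.989), RNF185 (1.26) and TOMM20 (1.32). For FLI1 they were DNAJC19 (0.0971), LETMD1 (0.102) and DDX54 (0.143). The nearest genes of FLI1 were closer than those of ELF2 and ELK4, and 82.1% of protein coding genes lay below FLI1 in VAL-R2.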

How the data were processed

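The 10 genes and the gene lists were chosen with earlier results of these data known. Reads were mapped by the authors to GRCh37 with bowtie2 and filtered with SAMtools for single mapping, a quality of at least 10 and duplicates, and peaks were called with HOMER, per the study's methods, whereas the submitters' processing notes name CASAVA 1.4 and BWA. The deposited lists, 1 per library, are laid out as MACS2 writes them. The caller, control and settings behind them are not given in the sources used here. Fold enrichment, a ratio of summit pileup to local background, and the -log10 p and -log10 q are deposited values of the authors' caller. The deposited score was not used. All listed p-values were 0.05 or lower.

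Reads and background were solved from fold and -log10 p, taking the fold as reads + 1 over background + 1 and the p-value as Poisson. Genes and TSS were taken from GENCODE release 44 on GRCh37, and the canonical transcript was that tagged by Ensembl. Replicates and lines were grouped from the sample titles, and calls were compared by counts. All 10 genes, other ETS genes and partners passing in both lines (at most 5 per list), the 3 genes most similar to FLI1 and to each gene passing in the 3 libraries, and genes with a TSS within 3 kb of a passing peak were named. Alternatives covered the threshold, the fold, the promoter definition, left-out libraries and the motif. On simulated data the reads of 11397 of 11425 peaks were recovered (99.8%), with all 500 promoter calls. The tools were scipy 1.17.1, pandas 2.3.3, numpy 2.4.6, matplotlib 3.10.9 and python 3.11.15. The sequence under 1 peak is not reported here.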

Additional observations from a re-analysis of the deposited data

How the results depend on the processing

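No paired analysis was possible because the results come from counts of listed peaks and from no test. Of 72 alternative values, 54 stayed within 1.5 times the reported count or within the 95% interval of the reported share, which is wide for so few peaks, and 18 moved. Of these, 9 moved when all listed peaks were taken, whatever their q-value: 10, 9 and 10 of the 10 genes then had a promoter peak in OCI-Ly1, VAL-R1 and VAL-R2, 10 in both lines and 9 in the 3 libraries, while 98.9%, 74.9% and 98.6% of all protein coding genes did, and 10, 10 and 10 had a peak inside the gene. With a -log10 q of at least 5, 1 gene passed in the 3 libraries (ELF2), beside 1.61% of protein coding genes. At that threshold 3 genes held a peak inside in OCI-Ly1, beside 9.05%. A minimum fold of 4, the summit in place of the centre, 1 kb in place of 3 kb and TSS of protein coding transcripts only gave the reported promoter counts in each library. Leaving out 1 library gave between 2 and 4 genes in both lines, with 2 when VAL-R2 was left out, and between 2 and 4 genes in the libraries that were kept, with 4 when VAL-R1 was left out. The share of passing peaks with the motif rose from 0 to 100% in OCI-Ly1 and from 11.1 to 66.7% in VAL-R2 with GGAA. It was 66.7% and 44.4% with GGAAGT and 50% in OCI-Ly1 with CAGGAAGT, both chosen after the data were seen. Over all listed peaks it was 1.22% in VAL-R2. With 6 to 19 reads behind each passing peak of these genes, weaker binding could not be detected.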

Other observations

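A peak passed inside ELF4, an ETS gene of the ELF class that is not among the 10, in each of the 3 libraries, although its best promoter -log10 q was 2.62, 0 and 2.27 in OCI-Ly1, VAL-R1 and VAL-R2. Of all protein coding genes 15.9%, 2.60% and 18.8% held a passing peak inside in these libraries. Whether the ELF4 peaks lie at the same place was not examined. ELF4 was named after its values had been seen.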
